A study of Mus musculus with 629 samples.

Results

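The 10 iron and heme handling genes described here encode proteins that store iron (Fth1, Ftl1), release it from storage (Ncoa4), break down heme (Hmox1, Blvrb), move heme (Slc48a1), export iron (Slc40a1) and take it up or move it between compartments (Tfrc, Slc11a1, Slc11a2). They were taken by symbol, and all 10 were found among the 53546 gene symbols of the table. They were measured in single brain cells of Notch3 knockout (KO), heterozygous (Het) and wild-type (WT) adult C57BL/6 mice. All groups carried the SM22-Cre;Rosa26-stop-tdTomato reporter, in which Cre under the promoter of the smooth muscle gene SM22 switches on a red fluorescent protein. Cells had been sorted by flow cytometry into 384-well plates and sequenced with the full-length SMART-seq2 method, without molecular identifiers. The labels placed 400 cells among macrophages (119 KO, 70 Het, 211 WT), 215 among microglia (78 KO, 58 Het, 79 WT) and 14 in a type named 7, which was left out of the comparisons.

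Cells store iron in ferritin, a shell of heavy (Fth1) and light (Ftl1) chains, and Ncoa4 carries ferritin to the lysosome for breakdown. Macrophages are known for recycling the iron of red blood cells: heme leaves the phagolysosome through Slc48a1, Hmox1 opens its ring to give iron and biliverdin, and ferroportin (Slc40a1) lets the iron leave the cell. Iron regulatory proteins bind hairpins in the messenger RNAs when iron is scarce. They block translation of ferritin through a hairpin in the 5′ untranslated region and protect the transferrin receptor message Tfrc through hairpins in the 3′ untranslated region.

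These hairpins, the iron-responsive elements, are shown because ferritin and Tfrc carry them at opposite ends of the message. They were read in the sense strand of the principal transcripts of GENCODE M21 on mouse build GRCm38. The search asked for a C, 5 bases, the 6-base loop CAGTGN and 5 bases that pair with those before the loop, counting G with T as a pair. Capitals mark the loop.
Fth1, 5′ untranslated region, chr19:9982733-9982760, plus strand: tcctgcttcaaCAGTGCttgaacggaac
Ftl1, 5′ untranslated region, chr7:45459779-45459806, minus strand: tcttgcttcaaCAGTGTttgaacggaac
Tfrc, 3′ untranslated region, chr16:32631220-32631247, plus strand: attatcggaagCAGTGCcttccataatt
Tfrc, 3′ untranslated region, chr16:32631599-32631626, plus strand: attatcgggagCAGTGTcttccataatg
Tfrc, 3′ untranslated region, chr16:32631664-32631691, plus strand: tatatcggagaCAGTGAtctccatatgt
Tfrc, 3′ untranslated region, chr16:32631711-32631738, plus strand: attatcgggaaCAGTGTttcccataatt

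Such a hairpin was found in 1 of 703 5′ untranslated regions at least as long as that of Fth1, its own included (0.142%), and in 10 of 6865 at least as long as that of Ftl1 (0.146%). Of 3506 3′ untranslated regions at least as long as that of Tfrc, 39 held a hairpin (1.11%) and 1, that of Tfrc, held 4 or more. No match was found in the untranslated regions of Blvrb, Slc11a1 and Ncoa4. Those of Hmox1, Slc40a1, Slc11a2 and Slc48a1 are not reported here, so nothing is said of hairpins in them. A match describes the letters and not binding, and translation was not measured.

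The labels do not tie cells to animals, so a genotype of a cell type counted as a single sample and no test between groups was run. Cells sharing genotype, plate and cell type were summed into a pool. Each cell type had 8 pools of 15 to 138 cells: 2 of KO (plates 060s and 524s), 3 of Het (056s, 524s and 529s) and 3 of WT (059s, 529s and 530s). Values of single pools follow this order of plates. Plates 056s, 059s, 060s and 530s held 1 genotype each, so plate and genotype cannot be told apart there. Levels are summed gene counts scaled to a common total (CPM), without the ribosomal RNA Rn18s, which took between 16.4% and 56.4% of the gene counts of a pool. Cells had a median of 216144 such counts (1488 to 2107020). Plate 056s, the deepest, gave 86.8% of the counts of Het macrophages, so the summed Het levels lean on it. Other summed levels lean on single plates too. Plate 060s gave 74.0% of the counts of KO macrophages and plate 530s 59.5% of those of WT macrophages. In microglia, plate 524s gave 56.2% in KO, plate 056s 64.1% in Het and plate 059s 68.5% in WT. Notch3 could not check the genotypes: KO macrophages held 2 counts, Het 0 and WT 77, all 77 in 1 cell, and each genotype of microglia held 1. Xist was at least 579 CPM in the pools of plate 530s, of KO on 524s and of Het on 529s and at most 8.81 CPM in the others, where 4 Y-linked genes summed to at least 112 CPM. Inside both plates that hold a pair of genotypes, sex and genotype therefore cannot be told apart.

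The labels went with their markers: 9 of 9 macrophage markers were higher in macrophages and 8 of 8 microglia markers were lower there. The summed macrophage markers ranged from 24349 to 35874 CPM in macrophage pools and from 7951 to 17052 CPM in microglia pools. The summed microglia markers ranged from 1180.2 to 2304 CPM in macrophage pools and from 21362 to 41819 CPM in microglia pools. Macrophage marker RNA was therefore present in microglia at a substantial level.

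Both ferritin chains were found in every macrophage and every microglial cell. Per kilobase of the longest principal transcript, Ftl1 stood at 1555 CPM and Fth1 at 1514 CPM in macrophages. With the shortest principal transcript, Fth1 stood at 2435 CPM per kilobase, so the order of the chains depended on the transcript length used. Hmox1 (437 CPM per kilobase), Blvrb (377), Slc40a1 (207) and Slc11a1 (141) followed in macrophages. Slc48a1 (58.5 CPM per kilobase), Slc11a2 (21.1), Tfrc (15.1) and Ncoa4 (10.9) were lowest. The pool ranges of neighbours in this order overlapped, except between Slc11a1 and Slc48a1. In microglia the order was similar, but Slc11a1 at 192 CPM per kilobase stood next to Blvrb (197), Hmox1 (174) and Slc40a1 (169), and these differed by less than the spread between pools.

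**Figure D1:**
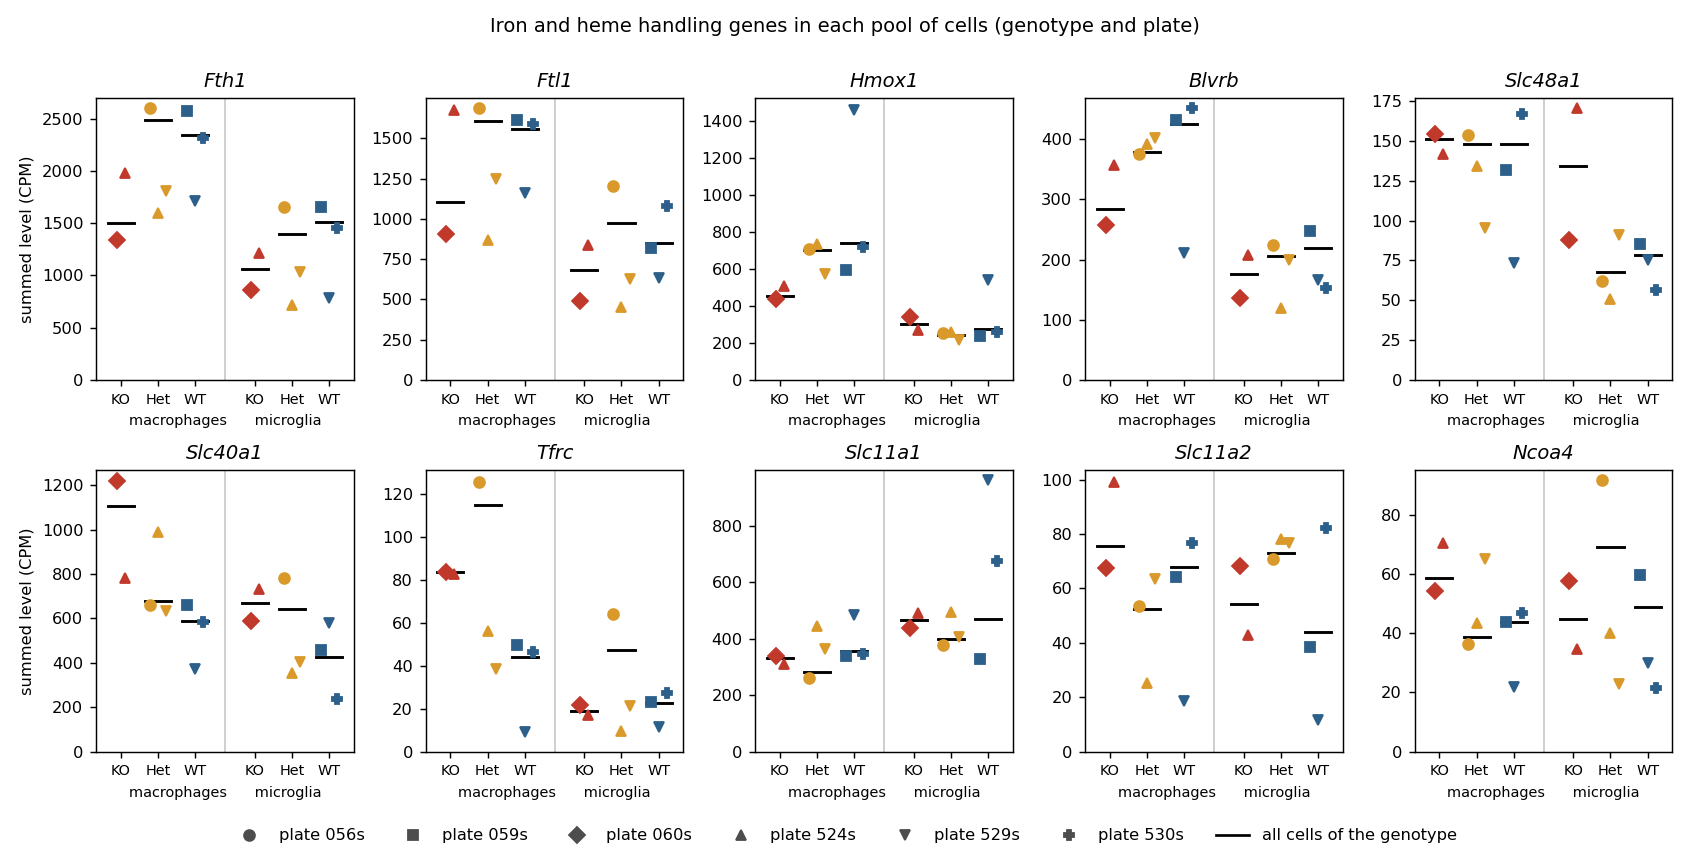
Summed level of the 10 genes in each pool of cells (CPM, linear axes from 0). Each point is the cells of 1 genotype on 1 plate, the black bar is all cells of the genotype, and macrophages stand left of microglia; Hmox1 in WT macrophages of plate 529s, at 1464 CPM, stands above the other macrophage pools.

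Macrophages were set against microglia to ask where each gene was more abundant. They held more Hmox1, Blvrb, Ftl1 and Fth1 RNA per gene count than microglia in all 8 pools. Measured genes were those with at least 20 CPM and counts in at least 25% of cells in 1 of the groups compared. A gene was called higher in macrophages when its ratio of CPM + 1 reached 1.5 and all 8 pools lay on that side. Of the 10 genes, all measured, 4 were called higher and 0 lower, beside 4.03% of 6230 measured genes called higher and 6.15% called lower. The median log2 ratio of the 10 genes was 0.73, beside 0.01 for all measured genes.

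Hmox1, the inducible heme oxygenase, had 686 CPM in macrophages, against 273 CPM in microglia, a 2.51-fold difference. Its macrophage pools ran from 439 CPM through a median of 653 to 1464 CPM, and its microglia pools from 218 through 260.3 to 543 CPM. The 2 sets of pools overlapped, but on each plate and genotype macrophages lay above microglia, by 1.28-fold to 2.82-fold. Blvrb, a biliverdin reductase that also acts on flavins, had 387 CPM in macrophages, against 203 CPM in microglia (1.91-fold). Its macrophage pools ran from 211 through 383 to 452 CPM and its microglia pools from 119 through 183 to 248 CPM, with 7 of the macrophage pools above every microglia pool.

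Fth1, the ferroxidase chain of ferritin, had 2262 CPM in macrophages, against 1347 CPM in microglia (1.68-fold). Its macrophage pools ran from 1335 through 1893 to 2600.3 CPM and its microglia pools from 715 through 1127 to 1652 CPM. Ftl1, the chain that favours mineral formation, had 1505 CPM in macrophages, against 848 CPM in microglia (1.77-fold). Its macrophage pools ran from 868 through 1417 to 1687 CPM and its microglia pools from 456 through 727 to 1202 CPM. For both chains the ranges overlapped between cell types, while within each pool macrophages were above microglia.

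Tfrc, the receptor that takes up transferrin-bound iron, and Slc48a1, the heme transporter, passed the fold limit but not the pool rule. Tfrc had 74.0 CPM in macrophages, against 30.2 CPM in microglia, with macrophages above in 7 of 8 pools. Slc48a1 had 148 CPM in macrophages, against 90.1 CPM in microglia, with macrophages above in 6 of 8 pools. Slc11a1, the metal pump of the phagosome membrane known from resistance to intracellular bacteria, was the gene most often on the microglial side. It had 327 CPM in macrophages, against 445 CPM in microglia, and it was lower in macrophages in 7 of 8 pools without reaching the fold limit. Slc40a1 (699 CPM in macrophages, 568 CPM in microglia), Slc11a2 (63.9 and 56.8 CPM in the same order) and Ncoa4 (44.3 and 54.6 CPM) had pools on both sides.

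**Figure D2:**
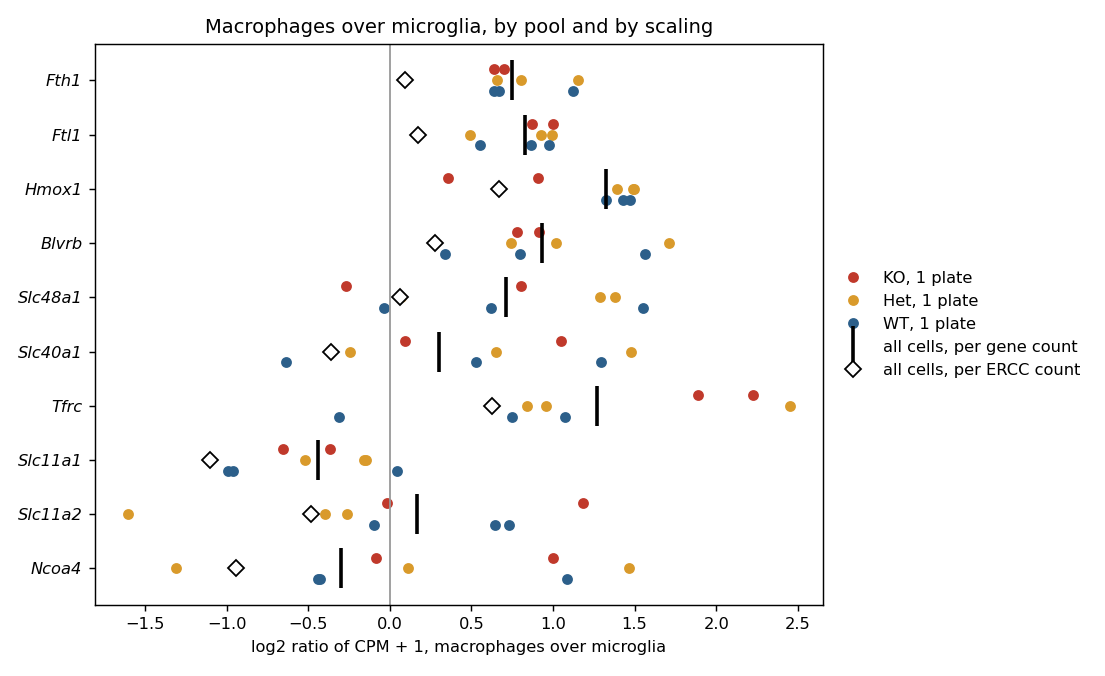
Log2 ratio of CPM + 1, macrophages over microglia, for the 10 genes. Points are pools coloured by genotype, bars are all cells scaled by gene counts, and open diamonds are all cells scaled by ERCC spike-in counts; for Fth1, Ftl1, Hmox1 and Blvrb all 8 points lie right of 0, and every diamond lies left of its bar.

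These 4 calls hold per gene count and not per added spike-in RNA. ERCC spike-in sequences gave 41.9 gene counts per ERCC count in macrophages and 66.0 in microglia, a 1.58-fold difference with microglia above in 8 of 8 pools. Scaled by ERCC counts, the log2 ratios were 0.67 for Hmox1, 0.27 for Blvrb, 0.17 for Ftl1 and 0.09 for Fth1, none was called higher, and Slc11a1 was called lower in macrophages. Macrophage marker RNA in microglia moved with the same genes: over 215 microglia, with pool means removed, the Spearman correlation with the summed macrophage markers was 0.53 for Blvrb, 0.39 for Slc40a1, 0.37 for Ftl1, 0.35 for Hmox1 and 0.25 for Fth1. The 50% of cells of each microglia pool with the most macrophage marker counts were left out, a choice made after the data were seen. The log2 ratios were then 1.62 for Blvrb, 1.61 for Hmox1, 0.95 for Ftl1 and 0.78 for Fth1, and Tfrc was called as well at 2.07. Blvrb, Hmox1, Ftl1 and Fth1 rose with these markers over single microglia, so this choice favours higher ratios and is no separate check.

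Other genes of iron and heme biology were counted by the same rule, from 7 lists of 64 genes. In macrophages over microglia 36 were measured, 4 were called higher and 2 lower, and their median log2 ratio was 0.10. The genes called higher were Blvra, the other biliverdin reductase (211 CPM in macrophages, 100.4 CPM in microglia), Cd163, the hemoglobin scavenger receptor (1721 and 778 CPM in the same order), Cp, the ferroxidase ceruloplasmin (238 and 91.8 CPM), and Prdx1, a peroxidase (113 and 60.6 CPM). Cd163 also stood in the list of macrophage markers. The genes called lower were Lrp1, the receptor for heme bound to hemopexin (209 CPM in macrophages, 722 CPM in microglia), and Iscu, the scaffold of iron-sulfur cluster assembly (30.6 and 50.1 CPM).

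Other abundant genes of these lists were not called. Trf, which encodes transferrin, had 5788 CPM in macrophages, against 4325 CPM in microglia, above microglia in 8 of 8 pools but under the fold limit. Hfe, a partner of the transferrin receptor, stood at 786 and 526 CPM in the same order, Nfe2l2, the transcription factor Nrf2, at 303 and 279 CPM, and its partner Mafg at 127 and 168 CPM. Hmox2, the constitutive heme oxygenase, had 203 CPM in macrophages, against 141 CPM in microglia. The heme synthesis genes Ppox (146 and 172 CPM) and Alas1 (175 and 119 CPM), the iron chaperone genes Pcbp1 (119 and 117 CPM) and Pcbp2 (66.8 and 75.6 CPM), and the iron sensor genes Fbxl5 (78.9 and 74.7 CPM) and Aco1 (69.8 and 64.5 CPM) were not called either.

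KO macrophages were then set against WT macrophages. No plate held both KO and WT cells, so in every KO over WT comparison, of macrophages and of microglia, genotype and plate cannot be told apart. Slc40a1 and Tfrc were higher and Hmox1 was lower in KO macrophages. Between genotypes a gene was called when the ratio reached 1.5 and every pool of 1 genotype lay above every pool of the other. Of the 10 genes, all measured, 2 were called higher and 1 lower, beside 3.56% of 4949 measured genes called higher and 7.58% called lower. The median log2 ratio of the 10 was -0.03, beside -0.06 for all measured genes.

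Slc40a1, the only known cellular iron exporter, had 1219.6 and 782 CPM in the KO macrophage pools, against 659, 373 and 584 CPM in the WT pools. Both KO pools lay above all WT pools, and the summed levels were 1106 CPM in KO (95% Poisson interval 1091 to 1122) and 590.2 CPM in WT (584 to 596), a log2 ratio of 0.90. The size came mainly from plate 060s: without it the log2 ratio was 0.41 and under the fold limit. It was 0.49 on plates 524s, 529s and 530s alone, and with Rn18s in the total it was 0.95 but the pools overlapped. The median KO macrophage held 942 CPM, against 492 CPM for the median WT macrophage, and 95.8% of KO cells had a count, against 90.5% of WT cells. These intervals cover counting error only, and reads copied by PCR are not independent molecules.

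Tfrc had 84.0 and 82.9 CPM in the KO macrophage pools, against 49.5, 9.11 and 46.2 CPM in the WT pools. The KO pools were nearly equal and lay above all WT pools, and the summed levels were 83.7 CPM in KO (79.5 to 88.1) and 44.1 CPM in WT (42.5 to 45.9), a log2 ratio of 0.91. With 1 plate left out the log2 ratio ranged from 0.81 to 1.01. Tfrc was sparse: 36.1% of KO macrophages and 25.1% of WT macrophages had a count, and 29.6% and 18.3% in the same order after cells were thinned to 30000 counts, with 4 and 3 shallower cells left out. In single pools the richest cell held between 16.9% and 84.6% of the Tfrc counts.

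Hmox1 had 439 and 509 CPM in the KO macrophage pools, against 593, 1464 and 719 CPM in the WT pools. Both KO pools lay below all WT pools, and the summed levels were 457 CPM in KO (447 to 467) and 742 CPM in WT (735 to 749), a log2 ratio of -0.70. Without plate 529s the log2 ratio was -0.56 and without plate 060s -0.54, both under the fold limit, and it was also under the limit with edgeR's TMM factors and with DESeq2's size factors. Immediate early and dissociation stress genes summed to 363 and 938 CPM in the KO macrophage pools, against 1496, 4414 and 699 CPM in the WT pools. These pools overlapped. The WT pool of plate 529s was highest in both Hmox1 and this sum, while the other WT pools stood in opposite order in them, and the part of this list in the Hmox1 result was not tested. Over single macrophages, with pool means removed, the Spearman correlation of Hmox1 with that list was 0.06 (n = 400).

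Relative to ERCC counts the KO macrophages held more gene counts, 56.2 per ERCC count, against 40.9 in Het and 39.4 in WT. With that scaling Slc40a1 and Tfrc were again called higher in KO than in WT, at log2 ratios of 1.42 and 1.41, and so were Ncoa4 at 0.92 and Slc11a2 at 0.66. Hmox1 was then at -0.19 and not called, so that call holds per gene count and not per ERCC count. Oligodendrocyte markers also moved with genotype: the 6 genes summed to 498 and 543 CPM in the KO macrophage pools, 603, 1645 and 749 CPM in the Het pools and 973, 858 and 622 CPM in the WT pools. Over single macrophages their Spearman correlation was -0.01 with Hmox1, 0.11 with Slc40a1 and 0.04 with Tfrc (n = 400 cells). The part of the oligodendrocyte markers in the differences between genotypes was not tested. The 6 lymphocyte and dendritic cell markers summed to 69.1 and 68.6 CPM in the KO macrophage pools, against 58.3, 5.54 and 67.8 CPM in the WT pools, mostly Zbtb46, and their part was not tested.

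**Figure D3:**
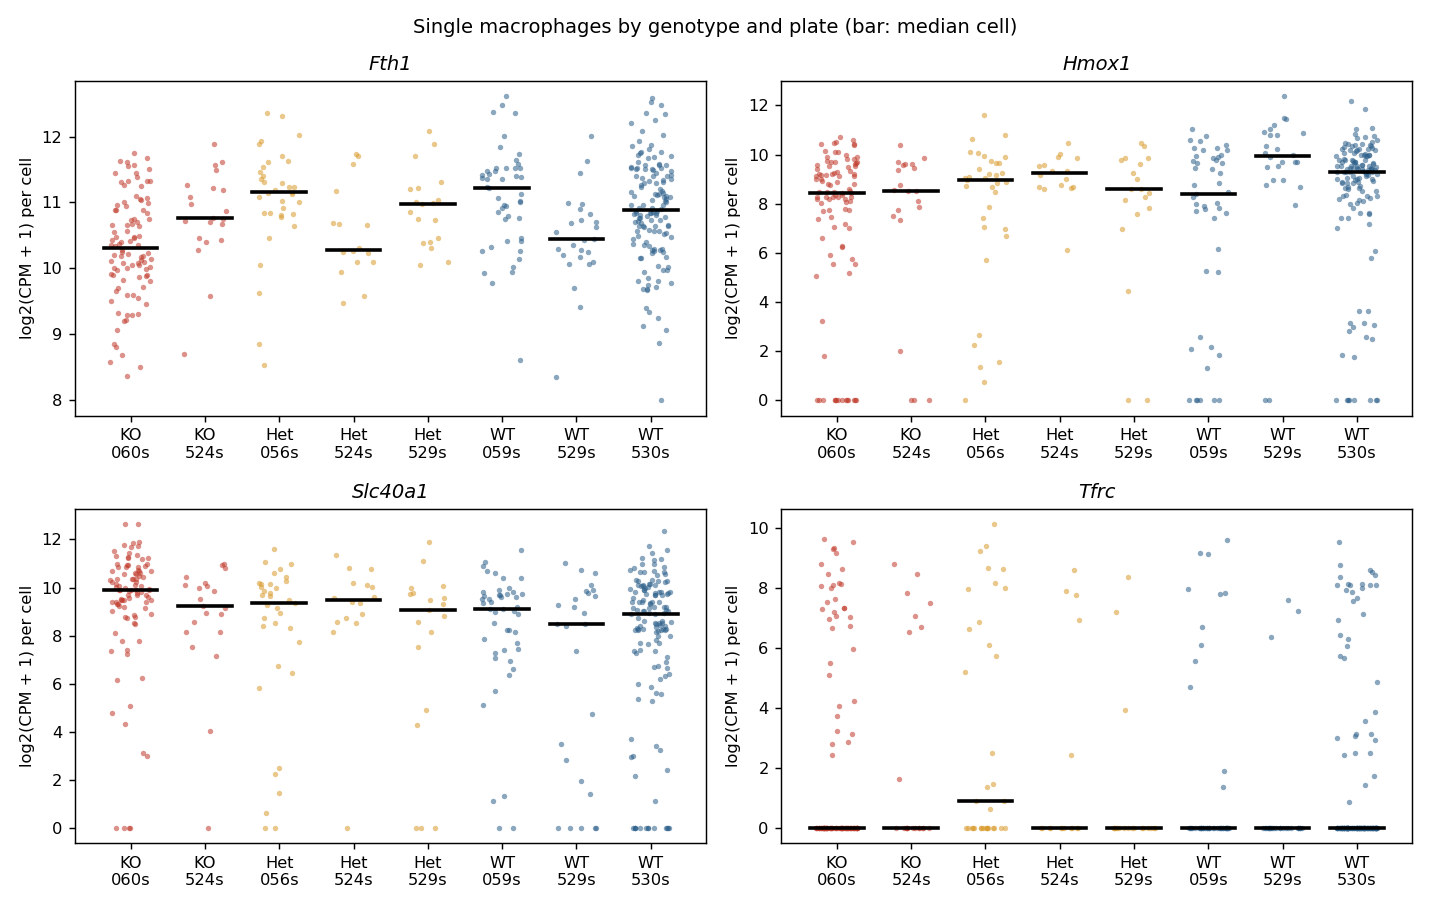
Fth1, Hmox1, Slc40a1 and Tfrc in single macrophages, as log2(CPM + 1) per cell (y) by genotype and plate (x). Points are cells and bars are the median cell of a pool; Slc40a1 has its highest median in KO of plate 060s, and most cells of every pool but Het 056s have no Tfrc count.

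None of the remaining members was called between KO and WT macrophages. Fth1 stood at 1502 CPM in KO and 2344 CPM in WT (log2 ratio -0.64), past the fold limit. Its KO pools at 1335 and 1979 CPM overlapped the WT pools at 2569, 1715 and 2312 CPM. Ftl1 had 904 and 1675 CPM in the KO pools, against 1611, 1160 and 1588 CPM in the WT pools, and a single cell held 41.6% of the Ftl1 counts of the KO pool of plate 524s. Blvrb had 257 and 358 CPM in the KO pools, against 432, 211 and 452 CPM in the WT pools. These 3 genes depended on the plates used. Without plate 524s Fth1 (log2 ratio -0.81) and Ftl1 (-0.78) were called lower in KO than in WT, and lower than in Het at -0.93 and -0.87. Without plate 529s Fth1 (-0.68) and Blvrb (-0.65) were called lower in KO than in WT. With plate 060s left out, KO over WT gave -0.24 for Fth1, 0.10 for Ftl1 and -0.25 for Blvrb, and none was called. Ncoa4 was higher in both KO pools (54.3 and 70.5 CPM, against 43.7, 22.0 and 46.6 CPM in WT), under the fold limit. Slc11a1 reached almost the same level at the nearest pools (338.4 and 311 CPM, against 338.4, 484 and 347 CPM in WT). Slc48a1 and Slc11a2 had log2 ratios of 0.03 and 0.16 with overlapping pools.

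Against Het, KO macrophages were lower in Hmox1, and 0 members were called higher. KO pools had 439 and 509 CPM, against 712, 739 and 575 CPM in the Het pools, with no overlap, and the log2 ratio of the summed levels was -0.62. The 1 call among 10 measured members stands beside 5.55% of 5299 measured genes called lower and 5.04% called higher, and the median log2 ratio of the members was -0.19, beside -0.08 for all. The call was lost under 11 of 25 alternatives. The log2 ratio was -0.51 without plate 056s and with the mean of pools, -0.47 without plate 060s, -0.43 without the top cell of each pool, -0.34 with equal weight for each cell, -0.23 after thinning and -0.16 with ERCC scaling. With Rn18s in the total it was -1.04 with overlapping pools, and Blvrb was the member called lower (-0.84). With ERCC scaling Slc40a1, Ncoa4 and Slc11a2 were called higher in KO than in Het, at 1.16, 1.03 and 0.97. The stress list summed to 363 and 938 CPM in the KO pools and to 1072, 1051 and 837 CPM in the Het pools. KO over WT and KO over Het share the KO cells, so the pair of Hmox1 calls is not independent.

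Slc40a1 and Tfrc, called against WT, were not called against Het. Slc40a1 had 661, 991 and 635 CPM in the Het macrophage pools, with Het of plate 524s above KO of the same plate (782 CPM). Tfrc had 126, 56.3 and 38.7 CPM in the Het pools, so that 1 Het pool lay above and 2 below the KO pools. Inside plate 524s, the only plate with both genotypes, the log2 ratios of KO over Het macrophages were -0.54 for Hmox1, -0.34 for Slc40a1 and 0.55 for Tfrc. They were 1.94 for Slc11a2, 0.95 for Ftl1, 0.69 for Ncoa4 and -0.07 for the median gene, and 77.4% of the Slc11a2 counts of Het there came from 1 cell.

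Between Het and WT macrophages 0 of 10 measured members were called, beside 2.36% of 5337 measured genes called higher and 3.64% called lower. The median log2 ratio of the members was -0.04, beside 0.02 for all measured genes. Tfrc had the highest log2 ratio, 1.36, at 115 CPM in Het and 44.1 CPM in WT, but its pools overlapped (126, 56.3 and 38.7 CPM in Het, against 49.5, 9.11 and 46.2 CPM in WT). Plate 529s held both genotypes, and there Hmox1 had 575 CPM in Het and 1464 CPM in WT, and Tfrc 38.7 CPM in Het and 9.11 CPM in WT. The immediate early and dissociation stress genes summed to 837 CPM in Het and 4414 CPM in WT there, and their part was not tested.

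Of the 64 other iron and heme genes, 30 were measured in KO and WT macrophages, 3 were called higher and 3 lower. Slc39a8, which carries zinc, manganese and iron into cells, stood at 63.9 CPM in KO and 25.4 CPM in WT, Ppox, of heme synthesis, at 212 and 129.7 CPM in the same order, and Ireb2, which encodes iron regulatory protein 2, at 59.8 and 29.4 CPM. Pcbp1 (77.1 CPM in KO, 151 CPM in WT), Iscu (16.8 and 32.2 CPM) and Prdx1 (68.6 and 113 CPM) were lower in KO. Ireb2 had 65.6 and 43.4 CPM in the KO pools, against 37.6, 12.9 and 27.3 CPM in the WT pools. Against Het, 34 were measured, 1 was called higher and 4 lower. They were Slc39a8 (63.9 CPM in KO, 10.4 CPM in Het) and, on the low side, Hmox2 (153 and 246 CPM in the same order), Alad, of heme synthesis (20.1 and 58.8 CPM), Pcbp2 (44.4 and 90.7 CPM) and Iscu (16.8 and 34.4 CPM). In Het over WT 33 were measured, and Pcbp1 was lower (90.8 CPM in Het, 151 CPM in WT).

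KO microglia were higher than WT microglia in Slc48a1 and Slc40a1. Of the 9 measured members 2 were called higher and 0 lower, beside 5.54% of 6372 measured genes called higher and 4.52% called lower. Their median log2 ratio was -0.01, beside -0.04 for all measured genes. Slc40a1 had 589 and 734 CPM in the KO microglia pools, against 458, 579 and 238 CPM in the WT pools, and the nearest pools, 589 and 579 CPM, almost touched. Its log2 ratio was 0.65, with 671 CPM in KO (659 to 682) and 428 CPM in WT (420.4 to 436).

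Slc48a1 had 88.0 and 171 CPM in the KO microglia pools, against 85.5, 75.4 and 56.4 CPM in the WT pools. The KO pool of plate 060s was close to the highest WT pool and that of plate 524s well above it. The summed levels were 134 CPM in KO (129 to 139.7) and 78.5 CPM in WT (75.3 to 81.9), a log2 ratio of 0.77 that became 0.16 without plate 524s. That of Slc40a1 became 0.46 without plate 524s and 0.50 without plate 530s, under the fold limit. Neither call was made with cells thinned to 30000 counts, when each cell had equal weight or with Rn18s in the total, and that of Slc40a1 was also lost with TMM and DESeq2 factors. Both were made with ERCC scaling (log2 ratios of 1.04 for Slc48a1 and 0.92 for Slc40a1). The lymphocyte and dendritic cell markers summed to 41.0 and 20.4 CPM in the KO microglia pools, against 49.1, 82.9 and 71.6 CPM in the WT pools, mostly Zbtb46, while Cd3e was at 0 in KO and WT microglia. The part of these cells in the results was not tested.

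Hmox1 in microglia had 342 and 271 CPM in the KO pools and 253, 261 and 218 CPM in the Het pools. It had 236, 543 and 259 CPM in the WT pools, where WT of plate 529s was again highest. Immediate early and dissociation stress genes were highest in that WT pool as well, at 3839 CPM, beside 457 to 983 CPM in the others. Their part in the Hmox1 values was not tested. Fth1 had 856 and 1217 CPM in the KO pools, 1652, 715 and 1037 CPM in the Het pools and 1652, 788 and 1456 CPM in the WT pools, and Ftl1 overlapped in the same way. Tfrc stayed between 9.49 and 64.1 CPM in all microglia pools, and in WT of plate 529s 1 cell held 97.3% of its counts. KO over Het microglia gave 0 calls in either direction among 10 members, beside 5.92% of 6554 measured genes called higher and 4.23% called lower. The median log2 ratio of the members was -0.31, beside 0.00 for all genes. Het over WT microglia also gave 0 calls among 10 members, beside 2.61% of 6601 measured genes called higher and 2.85% called lower, with medians of 0.05 and -0.04.

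Inside plate 524s the log2 ratios of KO over Het microglia were 1.73 for Slc48a1, 1.05 for Slc40a1, 0.87 for Ftl1, 0.80 for Blvrb and 0.77 for Fth1, beside 0.00 for the median gene. Slc11a2 was at -0.85 and Hmox1 at 0.05. With 1 pool on each side, these ratios have no replicate check. Among the other iron and heme genes of microglia, Slc39a8 was called higher in KO over WT (54.3 CPM in KO, 27.1 CPM in WT) and in KO over Het (23.7 CPM in Het), and Aco1, iron regulatory protein 1, in KO over Het (86.3 CPM in KO, 47.2 CPM in Het). Of 35 measured in KO and WT, 4 were lower in KO: Slc25a38, the glycine carrier of heme synthesis (18.3 CPM in KO, 38.4 CPM in WT), Slc22a17, a lipocalin 2 receptor (41.7 and 66.4 CPM in the same order), Pcbp1 (78.1 and 157 CPM) and Prdx1 (42.8 and 70.3 CPM). Of 37 measured in KO and Het, Slc25a38 (18.3 CPM in KO, 34.3 CPM in Het) and Nfs1, the sulfur donor of iron-sulfur clusters (25.2 and 40.1 CPM), were lower. Of 37 measured in Het and WT, Slc22a17 was lower (27.9 CPM in Het, 66.4 CPM in WT).

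**Figure D4:**
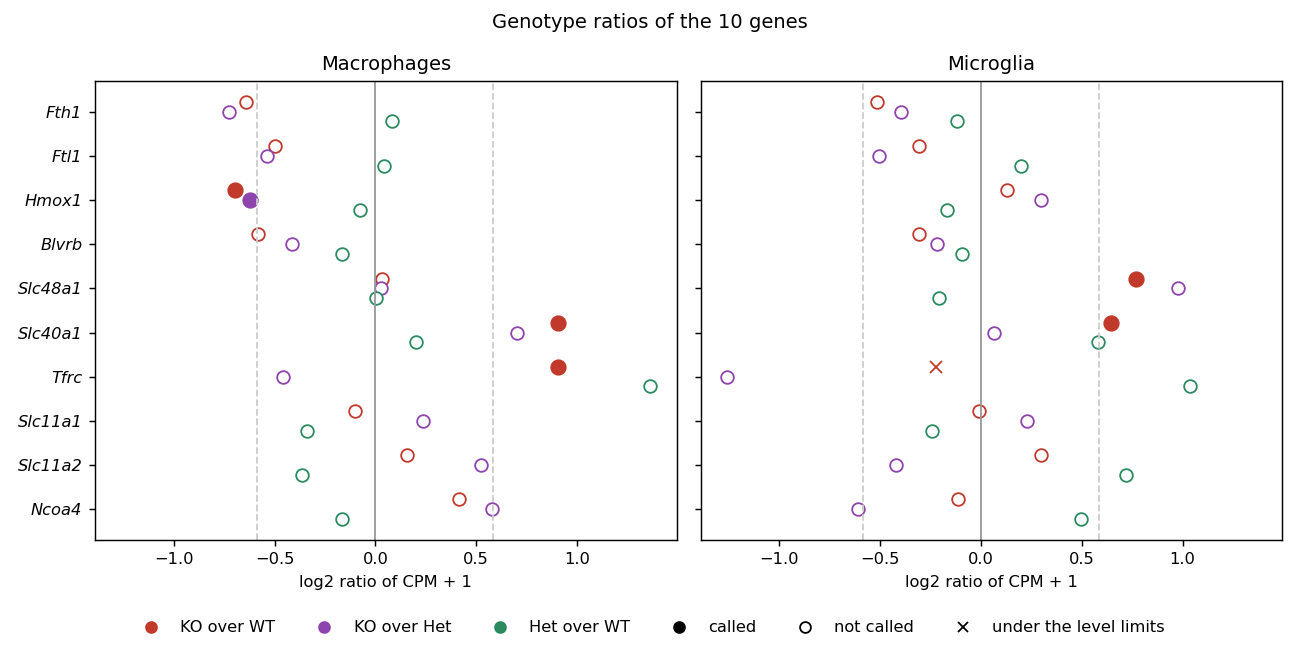
Log2 ratio of CPM + 1 between genotypes for the 10 genes in macrophages (left) and microglia (right). Filled circles were called, open circles were not, the cross was under the level limits in both groups and dashed lines mark the 1.5-fold limit; Hmox1 is filled on the low side in macrophages, and Slc40a1 is filled for KO over WT in both cell types.

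Across single cells the ferritin chains varied together. With pool means removed, the Spearman correlation of Fth1 with Ftl1 was 0.50 over 400 macrophages and 0.61 over 215 microglia, above 0 in 8 of 8 pools of each. The other pairs were weaker: Ftl1 with Blvrb had 0.21 in macrophages and 0.39 in microglia, Blvrb with Slc40a1 0.31 in microglia, and the median of the 45 pairs was 0.03 in macrophages and 0.08 in microglia. Genes of a cell share its library and total, and these values are descriptions. The ratio of Fth1 to Ftl1 CPM had a median cell value of 1.54 in macrophages and 1.63 in microglia, and Fth1 was above Ftl1 in 80.5% of macrophages and 84.7% of microglia. Its summed value was 1.36 in KO, 1.55 in Het and 1.504 in WT macrophages, and 1.54, 1.43 and 1.78 in KO, Het and WT microglia. These ratios take no account of transcript length, and per kilobase the order of the chains depended on the transcript length used.

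**Figure D5:**
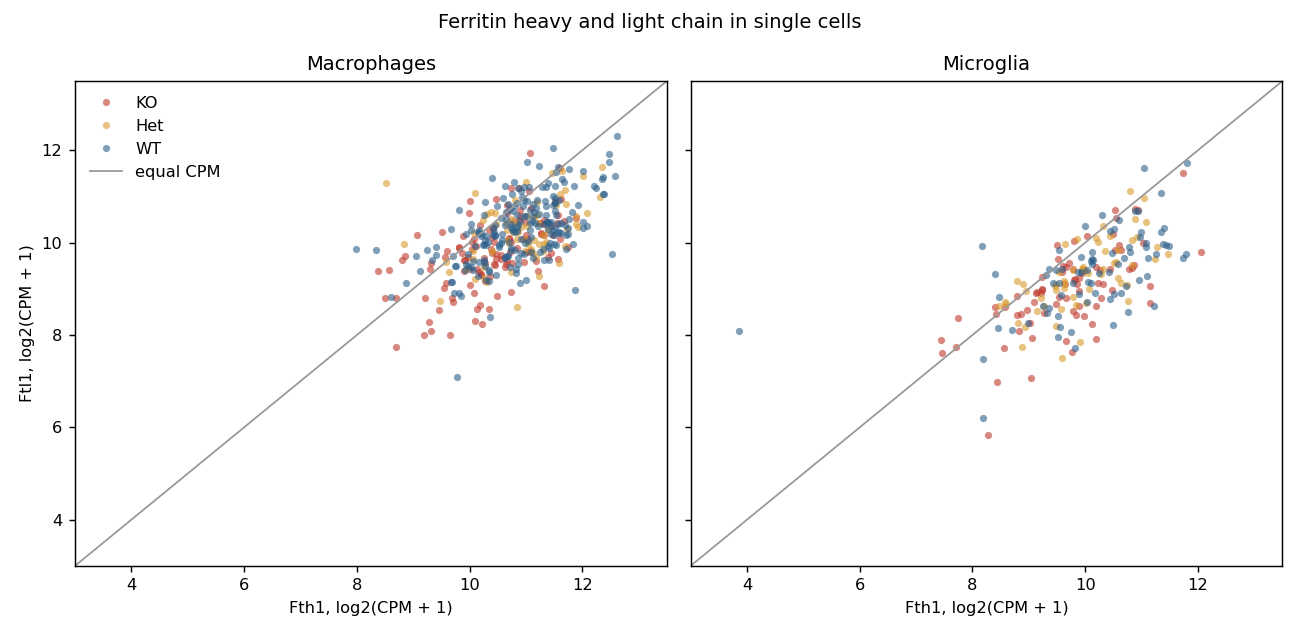
Ftl1 against Fth1 in single cells, both as log2(CPM + 1), for macrophages (left) and microglia (right). Each point is a cell coloured by genotype and the line marks equal CPM, without regard to transcript length. Below the line lie 80.5% of macrophages and 84.7% of microglia.

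Among 2048 genes with a count in at least 50% of macrophages, those most like Fth1 were Ftl1 (0.50), Tmsb4x (0.47), Rplp1 (0.44) and Sh3bgrl3 (0.40). Among 3479 such genes of microglia they were Ftl1 (0.61), Tmsb4x (0.49), Apoe (0.48), Fcer1g (0.45) and B2m (0.43). In microglia Hmox1 was most like Mrc1 (0.34), Cbr2 (0.33), Snx2 (0.33), Clec10a (0.32) and Pf4 (0.32), and Slc40a1 was most like F13a1 (0.37), Cd163 (0.36), Ms4a7 (0.36), Igfbp4 (0.35) and Mrc1 (0.35). Mrc1, Cbr2, Pf4, F13a1 and Cd163 are known markers of border macrophages. In macrophages the highest values were 0.18 for Hmox1, with Bax, and 0.21 for Slc40a1, with Cfp, which in sparse counts is too weak to report as likeness.

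Detection separated the abundant from the sparse members. The median cell had a count for 8 of the 10 genes in both cell types, and all 10 were seen in 24 of 400 macrophages and 15 of 215 microglia. Slc40a1 had a count in 92.3% of macrophages and 92.6% of microglia, Hmox1 in 91.0% and 87.0%, and Slc11a1 in 80.3% and 95.3%. Tfrc was seen in 30.8% of macrophages and 26.0% of microglia, and Slc11a2, the divalent metal importer of the endosome, in 37.3% and 48.8%. In single pools the richest cell held up to 84.6% of the Tfrc and 77.4% of the Slc11a2 counts of macrophages, beside at most 22.0% for Fth1.

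Shared sequence limits the source of some reads. Near-identical copies of ferritin held counts equal to 0.214% of those of Fth1 and 0.792% of those of Ftl1, and how shared reads were divided is not given in the sources used here. In GENCODE M21, exons of Ftl1 overlap Gm22133 on the same strand and Gm10252 on the other, over 464 bases in all, and exons of Slc11a2 overlap Gm5475 on the other strand over 402 bases. Exons of Slc48a1 overlap Hdac7 on the other strand over 29 bases. Whether counting used strand is not given, so the source of reads in these stretches is uncertain.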

How the data were processed

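The table the authors deposited held raw counts of 53546 gene symbols and 92 ERCC sequences in 629 cells, with 0 identical columns and 0 columns not used. The submitters' processing notes name STAR; the aligner's version, genome build, annotation and counting program are not given in the sources used here. ERCC sequences took 1.22% of counts.

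CPM was computed here from the deposited counts, without Rn18s (40.4% of gene counts), summed over cells, with exact Poisson 95% intervals. Ratios used CPM + 1. Called means a ratio of at least 1.5 with pools not overlapping between genotypes, or on 1 side in all 8 pools between cell types; a genotype with fewer pools meets this more easily. All 10 genes are named, and of the other lists the genes called in a comparison and the 2 with the most CPM in each list. The 5 most alike genes are those of highest Spearman correlation over cells, after pool means are removed, among genes with a count in at least 50% of cells, without predicted genes; a gene that this rule takes is not reported here. The members and lists were chosen with earlier results of these data known.

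The calling procedure was run on simulated counts of KO and WT macrophage pools, with some genes changed by a known fold. Noise was independent between pools, without effects of plate, sex or single cells, so the simulation does not check the calls against these. Alternatives changed the total (with Rn18s, ERCC, TMM factors of edgeR 4.0.16, size factors of DESeq2 1.42.0, both used for scaling only), the pseudocount, the floors, the fold limit, the averaging, depth and single plates or cells. Python 3.11.15, numpy 2.4.6, pandas 2.3.3, scipy 1.17.1, matplotlib 3.10.9 and R 4.3.3 were used. Hairpins and overlaps came from GENCODE M21, which held 50067 of the symbols. Of the 10 genes, 6 had an entry among RefSeq's promoters; Hmox1, Slc40a1, Slc11a2 and Slc48a1 were not.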

Additional observations from a re-analysis of the deposited data

Results flagged for a closer look

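Hmox1 moved in opposite directions in KO over Het: its log2 ratio was -0.62 in macrophages and 0.30 in microglia, with pools that did not overlap in either cell type. Slc11a2 did so as well, at 0.52 in macrophages and -0.42 in microglia. Neither difference between the cell types was tested, and only Hmox1 in macrophages passed the 1.5-fold limit. The nearest KO and Het pools of Slc11a2 almost touched, at 67.4 and 63.6 CPM in macrophages and 68.4 and 70.6 CPM in microglia. Those of Hmox1 in microglia were also close, at 271 and 261 CPM. In macrophages 1 cell held 77.4% of the Slc11a2 counts of the Het pool of plate 524s.

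The 14 cells of the type named 7 were in no comparison. They held 1736 CPM of Fth1, 1317 CPM of Ftl1, 111 CPM of Hmox1, 262 CPM of Blvrb, 169 CPM of Slc48a1, 819 CPM of Slc40a1, 41.9 CPM of Tfrc, 96.9 CPM of Slc11a1, 19.7 CPM of Slc11a2 and 39.3 CPM of Ncoa4. The Hmox1 and Slc11a1 levels lay below those of every macrophage and microglia pool.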

How the results depend on the processing

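Of 346 counts of called members over all comparisons and alternatives, 273 stayed within the limits of the counts reported and 73 moved. For the log2 ratios of the 10 members, over the same comparisons and alternatives, 912 stayed within their own limits and 818 moved. Counts of called members and log2 ratios were judged by different limits, so these shares do not show which was more stable. Changes of the floors or of the fold limit cannot move a log2 ratio. Among called values 0 signs reversed. In macrophages over microglia (4 higher, 0 lower), ERCC scaling gave 0 higher and 1 lower, a fold limit of 2 gave 1 higher, and plates 056s, 059s and 060s alone, and 524s, 529s and 530s alone, gave 1 lower each. In KO over WT macrophages (2 higher, 1 lower), a total with Rn18s gave 1 higher, ERCC 4 higher and 0 lower, a fold limit of 2 gave 0 in both directions, TMM and DESeq2 factors gave 0 lower, and plates 056s, 059s and 060s alone gave 3 lower; leaving out each plate gave 0 to 3 lower. In KO over Het macrophages (0 higher, 1 lower), 1 was higher with the mean of pools, without the top cell of each pool and on plates 056s, 059s and 060s, and 3 were higher with ERCC, on plates 524s, 529s and 530s and on plate 524s alone. There 0 were lower with all of these, with the mean of cells, a fold limit of 2 and thinning, except on plates 056s, 059s and 060s, with 3; leaving out each plate gave 0 to 2 higher and 0 to 3 lower. In Het over WT macrophages (0 and 0), plates 056s, 059s and 060s gave 1 higher, plate 529s 4 higher and 1 lower, and leaving out each plate 0 to 1 higher.

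In KO over WT microglia (2 higher, 0 lower), a total with Rn18s, the mean of cells, a fold limit of 2 and thinning gave 0 higher, and TMM, DESeq2 and plates 056s, 059s and 060s gave 1 higher. Those plates gave 3 lower and plates 524s, 529s and 530s 1 lower, and leaving out each plate gave 0 to 3 higher and 0 to 2 lower. In KO over Het microglia (0 and 0), 1 was higher without the top cell of each pool, 2 on plates 524s, 529s and 530s and 5 on plate 524s, while 5 were lower on plates 056s, 059s and 060s, 1 on the other plates and 1 on plate 524s; leaving out each plate gave 0 to 1 higher and 0 to 3 lower. In Het over WT microglia (0 and 0), ERCC gave 1 higher, plates 056s, 059s and 060s 4, and plate 529s 2, with 2 lower there and 2 lower on plates 524s, 529s and 530s; leaving out each plate gave 0 to 1 in each direction. Without a plate of KO, 1 pool is left, which makes the rule easier to meet. The cause of these moves was not tested.

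Over 24 alternatives Tfrc in KO over WT macrophages was called in 23, Slc40a1 in 20 and Hmox1 in 17. Over 24 in KO over WT microglia Slc48a1 was called in 18 and Slc40a1 in 15, and Hmox1 in KO over Het macrophages in 14 of 25. Some outcomes in these tallies were fixed in advance. Leaving out a plate with neither genotype of a comparison changes no level there, and adding ferritin copies bears on ferritin only. A fold limit of 2 removes each of these calls by the size of its main ratio. The tallies therefore do not count independent checks. The alternatives with microglia low in macrophage markers and with Fth1-ps added were chosen after seeing the data. Pools paired the cell types by plate and genotype throughout, and the plates with a pair of genotypes gave ratios within a plate; the replicate numbers only name cells, so no replicate block was fitted. Depth limits Tfrc and Slc11a2, which few cells carry.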

Other observations

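One WT macrophage of plate 530s, chosen after its values were seen, held 99.2% of the hemoglobin counts of its pool of 138 cells. The hemoglobin genes Hba-a1, Hba-a2, Hbb-bs and Hbb-bt gave 8163 of its 190302 counts (4.29%). No other cell of the series had more than 13 such counts.

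The members differed in their rank in this cell. It ranked number 2 of its pool in Hmox1 (3720 CPM, against a median of 634 CPM in the other cells), Slc40a1 (3353 CPM, against 475 CPM), Slc48a1 (851 CPM, against 4.17 CPM) and Tfrc (431 CPM, against 0 CPM). It ranked number 7 in Blvrb (1040.4 CPM, against 348 CPM), number 13 in Ftl1 (2401 CPM, against 1262 CPM) and number 29 in Fth1 (2932 CPM, against 1866 CPM). It ranked number 35 in Slc11a2 (57.8 CPM, against 0 CPM), number 52 in Ncoa4 (42.0 CPM, against 29.7 CPM) and number 68 in Slc11a1 (194 CPM, against 164 CPM). Without this cell the pool held 703 CPM of Hmox1, against 719 CPM with it, and 569 CPM of Slc40a1, against 584 CPM with it. A single cell gives values and no comparison of conditions.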
